A study of Rattus norvegicus with 6 samples.

Results

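Circular RNAs (circRNAs) are closed transcripts made when a downstream splice site is joined to an upstream one, the back-splice. Among the 32445 circRNAs that were sequenced in rat thalamus, 5398 (16.6%) held a reading frame without an end in their deposited sequence. They were chosen by sequence alone. The spliced length had to be below 1000 nt, a multiple of 3 and shorter than the genomic span, and at least 1 of the 3 sense frames, read once round across the back-splice junction, had to hold no stop codon and at least 1 ATG start codon. They are called endless-frame circles here. The 5411 spliced circles below 1000 nt with a length that is a multiple of 3 and no such frame served for comparison. No read count enters the rule, whereas length, stop codons, ATG triplets and base composition are tied to it, and read levels vary with length.

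The tissue was the thalamus of 6 rats, the relay of sensory input from face and body to the cortex. Injections went into both temporomandibular joints: 3 rats received 50 µL of CFA (complete Freund's adjuvant, an agent that provokes lasting inflammation), and 3 rats 50 µL of saline, at 2 injections per week, and tissue was taken at day 14. No strain, sex, age or genotype is given in the labels. Each library held 573696 to 1176178 circRNA reads. The files used here do not pair circRNA identifiers with host genes, so lists of host genes and of cell type markers could not be applied, the tissue label could not be checked, and circles are named by position. The sources used here do not give the genome build of these positions.

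A linear messenger RNA is translated from a start codon to the first stop codon in the same frame. In a circle whose length is a multiple of 3 the ribosome comes back to its start in the same frame, so a frame without a stop codon has no end, and in experimental systems such circles have given long repeating peptides by rolling-circle translation. A closed circle has no end to carry a cap or a poly(A) tail, so a ribosome would need another way to enter. Some circRNAs of the brain have been found bound to ribosomes, but for most circles no peptide is known. The data here are sequences and read counts, and translation was not measured.

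To show what such a circle looks like, the most abundant endless-frame circles, those called between the groups and some extreme cases are printed from the deposited sequences, 5′ to 3′. Circles of up to 300 nt are shown whole, from the base after the back-splice junction to the base before it. Of longer ones a run of 300 bases across the junction is shown, placed to hold the most start codons. Capitals mark the start codons of the open frame.

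chr2:116586880-116591616, plus strand, circle of 375 nt, 150 bases before the junction and 150 after it: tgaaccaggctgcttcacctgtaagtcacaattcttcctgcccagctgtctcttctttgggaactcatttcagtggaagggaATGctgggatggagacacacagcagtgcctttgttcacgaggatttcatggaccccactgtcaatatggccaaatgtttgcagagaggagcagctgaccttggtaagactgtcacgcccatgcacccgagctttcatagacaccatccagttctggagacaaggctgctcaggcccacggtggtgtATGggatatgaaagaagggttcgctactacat

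chr2:22950023-22964734, plus strand, circle of 537 nt, 167 bases before the junction and the rest after it: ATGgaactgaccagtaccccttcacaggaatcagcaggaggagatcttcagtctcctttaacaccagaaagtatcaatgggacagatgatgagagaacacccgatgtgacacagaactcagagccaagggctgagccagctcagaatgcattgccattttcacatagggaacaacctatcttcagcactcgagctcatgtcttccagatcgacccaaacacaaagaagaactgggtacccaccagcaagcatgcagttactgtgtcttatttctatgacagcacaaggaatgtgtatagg

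chrX:4876505-4898806, minus strand, circle of 339 nt with 1 start codon, 150 bases before the junction and 150 after it: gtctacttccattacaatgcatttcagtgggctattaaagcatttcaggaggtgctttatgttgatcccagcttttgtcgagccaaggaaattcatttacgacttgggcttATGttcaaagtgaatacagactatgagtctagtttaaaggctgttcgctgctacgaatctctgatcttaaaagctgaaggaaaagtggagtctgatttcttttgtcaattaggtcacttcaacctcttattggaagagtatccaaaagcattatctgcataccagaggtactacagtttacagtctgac

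chr10:72329605-72332113, minus strand, circle of 324 nt, higher after CFA in the test across all circRNAs, 150 bases before the junction and 150 after it: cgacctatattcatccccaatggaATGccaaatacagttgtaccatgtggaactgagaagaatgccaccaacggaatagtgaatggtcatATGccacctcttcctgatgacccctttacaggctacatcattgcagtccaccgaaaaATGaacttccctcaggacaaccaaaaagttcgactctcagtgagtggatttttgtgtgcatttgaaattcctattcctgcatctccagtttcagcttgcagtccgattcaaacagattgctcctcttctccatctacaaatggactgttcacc

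chr10:3191467-3204962, plus strand, 300 nt, shown whole, called as well but read in 1 library alone: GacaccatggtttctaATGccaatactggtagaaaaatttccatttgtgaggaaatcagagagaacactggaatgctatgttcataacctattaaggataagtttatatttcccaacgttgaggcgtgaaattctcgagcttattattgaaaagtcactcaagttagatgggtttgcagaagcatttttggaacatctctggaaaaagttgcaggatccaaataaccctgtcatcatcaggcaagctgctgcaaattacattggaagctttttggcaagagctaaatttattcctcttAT

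chr5:145257717-145264951, plus strand, 156 nt, shown whole, the shortest with reads in all 6 libraries: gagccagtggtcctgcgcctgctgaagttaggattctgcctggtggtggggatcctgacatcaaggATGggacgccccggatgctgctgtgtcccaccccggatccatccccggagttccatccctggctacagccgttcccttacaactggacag

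chr6:76020953-76031336, plus strand, circle of 450 nt, 16 of its 17 start codons in the bases shown, 136 of them before the junction: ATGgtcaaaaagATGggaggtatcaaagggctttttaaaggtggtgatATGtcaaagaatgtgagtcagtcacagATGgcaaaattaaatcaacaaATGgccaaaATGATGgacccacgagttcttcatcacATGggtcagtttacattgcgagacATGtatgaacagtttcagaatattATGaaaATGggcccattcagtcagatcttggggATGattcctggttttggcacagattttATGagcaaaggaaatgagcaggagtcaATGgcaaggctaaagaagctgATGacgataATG

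In the chr10 circle of 300 nt the capital G that opens the sequence and the capital AT that close it are 1 start codon, put together by the back-splice. In the chr10 circle of 324 nt a whole start codon lies directly before the junction. The chr6 circle is the densest in start codons of those shown.

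Of 31290 spliced circles below 1000 nt, 10809 (34.5%) had a length that is a multiple of 3, while 32.6% left a remainder of 1 and 32.8% a remainder of 2. Among the 10809, 5902 (54.6%) had at least 1 frame without a stop codon, and 5398 (49.9%) also had a start codon in it. The other 5411 were 4907 circles with a stop codon in every frame and 504 with an open frame that lacked a start codon. Read in the reverse direction, as their reverse complement, 518 of the 10809 circles (4.79%) met the same rule. This count is given for comparison and is no measured expectation from base composition or length.

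The gap between the 2 directions was widest at 500 to 599 nt among the length classes, and the reverse share was lower in each longer class. From 100 to 199 nt, 34.2% of 313 multiple-of-3 circles met the rule as given and 19.5% in reverse. From 300 to 399 nt it was 51.0% of 3694 circles, against 4.63% in reverse. From 500 to 599 nt it was 55.8% of 1179, against 1.02%, and from 700 to 999 nt 46.9% of 403, against 0.248%. In short circles the rule was thus met in both directions, whereas at 500 nt or more it was rarely met in reverse.

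**Figure D1:**
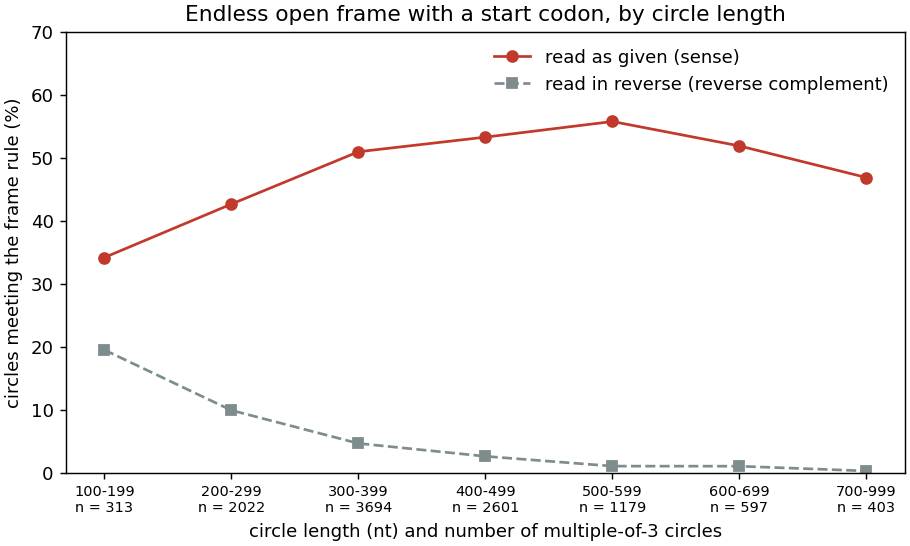
Share of spliced multiple-of-3 circles below 1000 nt that meet the frame rule (vertical axis, percent) by circle length in nt (horizontal axis, with the number of circles), read as given (red circles) and as the reverse complement (grey squares). The sense share lies between 34.2% and 55.8%, while the reverse share falls from 19.5% to 0.248%.

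Nearly all of these circles had a single open frame: 5322 had 1, 73 had 2 and 3 had all 3 frames open. The longest circle with reads in all 6 libraries was chr6:94473641-94476927, 972 nt with 9 start codons. It had 158, 64.5 and 160.5 RPM (reads scaled to a library total of 1000000 circRNA reads) after CFA and 43.6, 92.7 and 80.1 RPM after saline, and the groups overlap. The shortest, the 156 nt circle of chromosome 5 printed above, had 2 open frames and 1 start codon. It had 48.7, 59.9 and 39.8 RPM after CFA and 12.2, 50.2 and 8.55 RPM after saline, so 1 saline library lay among the CFA libraries. The 3 circles with 3 open frames were 174, 186 and 198 nt long and sparsely read. The most abundant of them, of 174 nt on the minus strand, had 7 reads in CFA replicate 2, 26 in saline replicate 2, 5 in saline replicate 3 and is listed at 0 in the other 3 libraries. It is shown with the start codons of the frame that holds most.

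chr3:163397320-163411447, minus strand, 174 nt, shown whole, all 3 frames open: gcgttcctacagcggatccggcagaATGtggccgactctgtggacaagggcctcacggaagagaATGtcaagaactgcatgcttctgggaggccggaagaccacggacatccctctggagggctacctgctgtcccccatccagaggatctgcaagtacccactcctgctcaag

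The open frame most often began at the junction itself. In 55.5% of the 5322 circles with 1 open frame the junction fell between 2 codons, so that the first base after it was the first base of a codon. In 15.7% the first whole codon began 1 base later, and in 28.8% 2 bases later, so that in these 2366 circles the back-splice joined 1 codon from both ends of the sequence. In protein-coding genes introns also fall more often between codons than within them, which is background and was not measured here. Median levels were alike in the 3 kinds, at 5.22, 5.22 and 5.41 RPM.

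Base composition followed the codon. G and C made up 53.7% of codon position 1 in the open frame, 39.2% of position 2 and 52.3% of position 3. A low share at position 2 is a known trait of coding sequence. In the same circles, chosen for 1 open frame, the 2 frames that are not open hold stop codons by definition. They held 5.05 and 6.26 stop codons per 100 codons. Endless-frame circles had a median G and C content of 48.4%, against 47.1% in the other multiple-of-3 circles. Among these others it was 46.9% in circles with no open frame and 49.5% in those with an open frame but no start codon. Stop codons are poor in G and C, and their part in these values was not tested.

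Circles cut from the same transcribed region mostly shared the frame. The 5398 circles came from 3232 loci, each a chain of circRNAs overlapping one another on 1 strand. In 1073 loci there was more than 1, and 3239 of them had at least 1 other endless-frame circle in their locus. Of 2495 pairs with 1 open frame each that share a run of 30 nt within a locus, 2369 (94.9%) read the whole shared sequence in the same frame. The 126 pairs that did not lay in 79 of 866 loci. Both circles of a pair had, by rule, no stop codon in their frames over the shared sequence. The choice of circles thus favours agreement, and how far was not tested. The richest locus, chr4:66095877-66232564 on the plus strand, held 15 endless-frame circles among 42 circRNAs. These 15 were 195 to 834 nt long, had 1.19 to 193 RPM each, and together 580 RPM. Members of a locus share exons, so they are not independent of each other.

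Start codons were mostly few. The median was 3 per circle, 1058 circles (19.6%) had 1, 3067 (56.8%) had 2 to 4, 1211 (22.4%) had 5 to 9 and 62 (1.15%) had 10 or more. Circles with more start codons were longer, with median lengths of 339, 384, 465 and 589.5 nt in these classes. They were also more abundant, at medians of 3.50, 4.83, 8.44 and 20.7 RPM. Length and level rise together in these circles, and the part of length in this was not tested. Per 100 codons the open frame held 2.40 start codons, the frame 1 base later 3.34 and the frame 2 bases later 0.581, so ATG triplets were not most dense in the open frame.

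**Figure D2:**
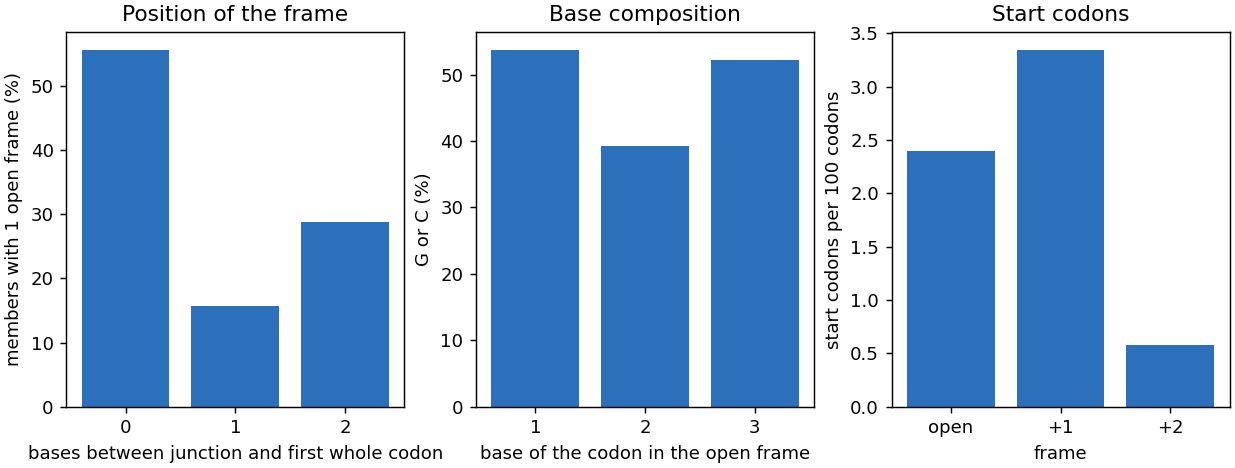
Left, percent of endless-frame circles with 1 open frame by the number of bases between junction and first whole codon. Middle, percent G or C at each codon position of the open frame. Right, start codons per 100 codons in the open frame and in the frames 1 and 2 bases later. Codon position 2 is lowest in G and C at 39.2%, and the frame 1 base later holds more start codons (3.34) than the open frame (2.40).

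The 3 circles richest in start codons among those read in every library lay on chromosomes 6 and 17. The 450 nt circle printed above, chr6:76020953-76031336, had 17. It reached 136, 187 and 128 RPM after CFA and 166, 140 and 187 RPM after saline, with full overlap. A 666 nt circle, chr17:6862839-6864981, had 16 start codons and 76.5 ± 26.2 RPM after CFA against 87.4 ± 29.96 in saline rats (SD, n = 3 each). A 579 nt circle, chr6:28019769-28051704, had 15 and reached 206 ± 75.9 against 204 ± 39.9 RPM (SD, n = 3 each). In each of the 3 the difference between groups was smaller than the SD within them.

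A favourable start context, A or G 3 bases before the ATG and G directly after it (ANNATGG or GNNATGG), was present at 3850 of the 17759 open-frame start codons (21.7%). In the frames 1 and 2 bases later 11.6% and 21.9% of the start codons had it. At least 1 such start codon in the open frame was found in 2728 circles (50.5%). Counted in any frame among circles of 300 to 450 nt, the motif occurred in 73.0% of endless-frame circles, 66.2% of the other multiple-of-3 circles and 69.4% of all circRNAs. On the reverse strand it occurred in 54.2%, 54.8% and 54.7%. The motif holds an ATG, which the rule asks for, so the sense shares are a description and show nothing beyond the choice of circles. The core letters of the best-known site of adenosine methylation, GGAC, a mark that has been tied to translation of circles, were found in 80.6%, 77.8% and 79.5% of the same 3 sets and in 66.3%, 66.1% and 67.1% on the reverse strand. All matches were searched round the closed circle, and they describe letters, not sites in use.

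The back-splice itself made a start codon in 23 circles (0.426%), and in 4 of these it was the sole one of the frame. The 3 most abundant of the 4 are shown by their junction sequence, the last 29 and the first 29 bases of the circle, with the start codon that spans the junction in capitals.

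chr11:34668094-34722272, plus strand, circle of 267 nt: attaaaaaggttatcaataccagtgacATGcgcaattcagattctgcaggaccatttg

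chr3:173916707-173922073, minus strand, circle of 291 nt: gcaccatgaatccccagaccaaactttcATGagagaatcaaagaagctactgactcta

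chr13:70951556-70966275, minus strand, circle of 315 nt: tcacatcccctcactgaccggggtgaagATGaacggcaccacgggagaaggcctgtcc

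The chr11 circle was read in every library, with 12, 9 and 13 reads in CFA rats against 6, 49 and 14 in saline rats. Its highest and its lowest value both came from saline libraries. The chr3 circle had 7 reads in CFA replicate 3 and 4 in saline replicate 2, and the chr13 circle had 4 reads in saline replicate 2. Start codons that exist only in the circle and stand alone in their frame were therefore rare and mostly sparse, with a median of 1.21 RPM.

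The junction alone closed a frame in few circles. In 31 of the 4907 closed circles the sole stop codon of a frame was the codon across the junction, and 29 of these had a start codon in that frame. It was TGA in 16, TAA in 9 and TAG in 6. The most abundant of the 29 was a 654 nt circle with 95.9, 47.6 and 46.5 RPM after CFA and 92.4, 66.3 and 80.1 RPM after saline. Its junction sequence is printed with the stop codon in capitals.

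chr19:29664470-29671928, minus strand, circle of 654 nt: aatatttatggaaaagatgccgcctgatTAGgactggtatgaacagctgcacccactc

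Other closed circles were a single stop codon away from the rule too. In 1395 of the 4907 (28.4%) the best frame held 1 stop codon, in 1317 (26.8%) 2, and in 2195 (44.7%) 3 or more.

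Endless-frame circles were read in more animals than the other multiple-of-3 circles. Of the 5398, 1665 (30.8%) had reads in all 6 libraries and 1387 (25.7%) in 1 library alone. Of the other 5411, 1254 (23.2%) and 1667 (30.8%) did. In circles of 300 to 450 nt the shares in all 6 libraries were 25.2% and 16.9%. These are counts over circles, which share loci and are not replicates, so no test was made of them. The spread of levels was wide in both sets, with quartiles of 1.62, 5.22 and 18.6 RPM for endless-frame circles and 1.42, 3.90 and 12.6 RPM for the others. Genomic spans were shorter, at a median of 9731 against 13067 nt, and at 300 to 450 nt 8455 against 12077 nt.

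Whether reads per circle were higher or lower differed with the length range and with the few most abundant circles counted. Over all lengths an endless-frame circle had 0.944 times the mean reads of another multiple-of-3 circle, a log2 ratio of -0.083 ± 0.0397 (SD over 6 libraries) that was below 0 in 6 of 6 libraries (exact two-sided sign-flip permutation test, p = 0.03125, the smallest possible). The libraries are the replicates in this test, so it speaks of these rats and not of other circles. The most abundant of the other circles, a 531 nt circle with a stop codon in every frame, chr7:30727478-30735182, alone had 11676 RPM on average. Without it, a step chosen after the data were seen, the log2 ratio was 0.017 (p = 0.21875 in the same exact test). Without the 10 most abundant circles of each class it was 0.029 ± 0.026 (p = 0.0625 in the same exact test). Among circles of 300 to 450 nt endless-frame circles had 1.49 times the reads, a log2 ratio of 0.58 ± 0.0608, above 0 in 6 of 6 libraries (p = 0.03125, exact sign-flip permutation test, 6 libraries).

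By length the median level of endless-frame circles was 3.84 against 2.78 RPM at 300 to 399 nt, 6.64 against 5.75 at 400 to 499 nt, 14.6 against 12.2 at 500 to 599 nt and 28.3 against 23.8 at 600 to 699 nt. It was the lower one at 100 to 199 nt, 1.79 against 2.03, at 200 to 299 nt, 1.82 against 1.90, and at 700 to 999 nt, 37.6 against 61.3 RPM. The share of multiple-of-3 circles that met the rule was 45.9% below 2 RPM, 48.7% from 2 to below 10, 55.8% from 10 to below 100 and 53.2% from 100 to below 1000 RPM. Of the 41 circles at 1000 RPM or more, 17 (41.5%) met it. Median length rose over the same classes, at 333, 372, 456, 529.5 and 630 nt, and the part of length in these shares was not tested.

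**Figure D3:**
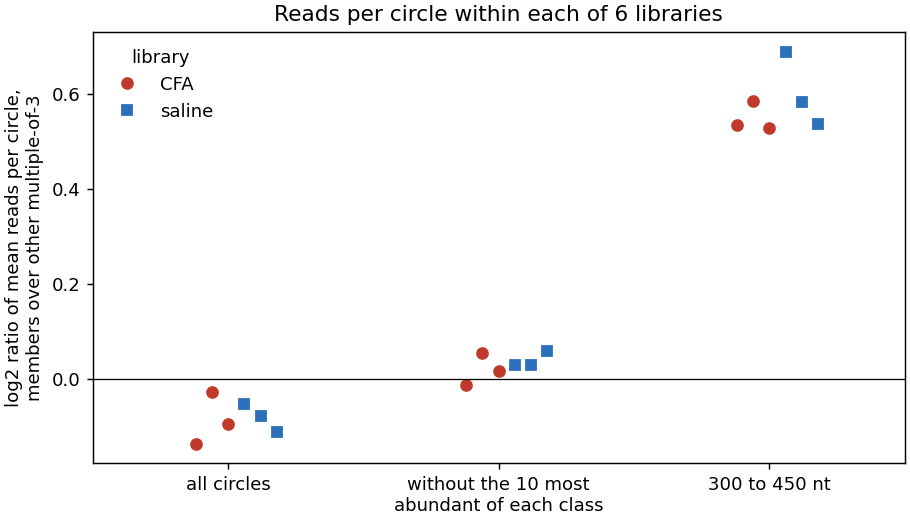
Log2 ratio of mean reads per circle, endless-frame over other multiple-of-3 circles (vertical axis), in each CFA (red circles) and saline (blue squares) library, for all circles, without the 10 most abundant circles of each class, and for circles of 300 to 450 nt. All 6 libraries lie below 0 for all circles and between 0.53 and 0.69 for circles of 300 to 450 nt.

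Injection of CFA did not detectably shift the class as a whole. Endless-frame circles took 16.1%, 16.6% and 15.9% of circRNA reads in the CFA libraries and 16.4%, 16.1% and 16.2% in the saline libraries. The means were 16.2 ± 0.333% and 16.2 ± 0.112% (SD, n = 3 each), a difference of -0.0527 percentage points (exact two-sided permutation test, p = 0.8, adjusted p = 0.8 over 2 tests). Of the circRNAs seen in a library they made up 17.9 ± 0.121% in CFA rats and 17.8 ± 0.476% in saline rats (SD, n = 3 each), with p = 0.7 in the exact permutation test and 0.8 after adjustment. With 3 rats against 3 neither test can go below 0.1. The signs of both differences turned when 1 library was left out: without CFA replicate 3 the first was 0.0920, without saline replicate 1 it was 0.00280, and without saline replicate 2 the second was -0.116 percentage points. In bulk tissue fewer cells that hold a circle and fewer copies per cell cannot be told apart.

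The 8 most abundant endless-frame circles held 13.1% of the reads of the class, and the 100 most abundant 43.4%. The chr2 circle of 375 nt, the first printed above, led with 4252, 4389 and 2961 RPM after CFA and 5677, 3919 and 4520 RPM after saline. Only CFA replicate 3 lay below the lowest saline library. It made up 80.1% of the reads (by mean RPM) of a locus of 15 circRNAs.

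The 537 nt circle of chromosome 2, the second printed, varied most among the leading circles. It had 4543, 8121 and 3222 RPM after CFA and 2428, 2067 and 5312 RPM after saline, and saline replicate 3 lay above 2 of the CFA libraries. Its log2 fold change (CFA minus saline) was 0.63 with an SE of 0.25, and its BH-adjusted p was 0.912. These values come from the quasi-likelihood test of edgeR over all circRNAs, adjusted after Benjamini and Hochberg (BH), in which a circle was called at an adjusted p below 0.05. Without saline replicate 3 the log2 fold change was 1.22 and the circle was called (BH-adjusted p = 0.000693, edgeR). Without CFA replicate 2 it was 0.23, without saline replicate 1 it was 0.43 and without saline replicate 2 it was 0.40, with no call. It held 92.4% of its locus of 13 circRNAs.

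Other leading circles were steadier between animals. A 498 nt circle, chr4:22532122-22561809, had 2676, 3194 and 3047 RPM after CFA and 3258, 3132 and 2679 RPM after saline. A 465 nt circle, chr11:37459699-37475255 on the minus strand, had 2246, 1723 and 3150 against 2956, 3096 and 1752 RPM, with both low values and both high values split over the groups, and held 96.7% of its locus. It has 1 start codon.

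A pair of circles from chromosome 5 shared the start at 167516581 and the open frame from its first base. The 582 nt circle, which ends at 167558250, had 2262, 2076 and 2198 RPM after CFA and 2250, 2551 and 2264 RPM after saline. The 681 nt circle, which ends at 167581074, had 2129, 1822 and 2179 against 2177, 2216 and 2099 RPM. They held 20.9% and 19.4% of a locus of 33 circRNAs, 7 of them with an endless frame, and both had 5 start codons.

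An 804 nt circle with 9 start codons, chr18:61323689-61340634, had 1563, 1283 and 1572 RPM after CFA and 2012, 1936 and 1206 RPM after saline. The chrX circle of 339 nt printed above had 1806, 1631 and 1076 against 1663, 1373 and 1390 RPM. In all 8 the groups overlapped. Their log2 fold changes lay between -0.31 and 0.63, with SE of 0.22 to 0.25, and the lowest BH-adjusted p was 0.912 (edgeR).

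**Figure D4:**
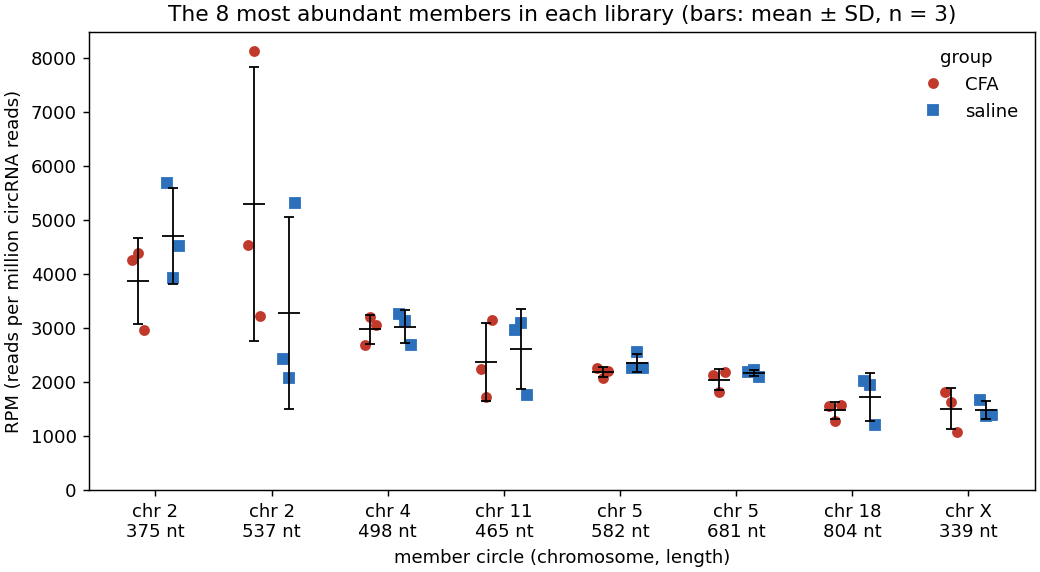
RPM (vertical axis, linear from 0) of the 8 most abundant endless-frame circles in each of 3 CFA (red circles) and 3 saline (blue squares) libraries, with mean and SD in black. The groups overlap for each circle, and the 537 nt circle of chromosome 2 spans 2067 to 8121 RPM.

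Circle by circle, 2 of the 3900 endless-frame circles tested (0.0513%) were called, both higher after CFA. Of all 22426 circRNAs tested 0.125% were called in either direction, 0.0624% higher and 0.0624% lower. A circle was tested with at least 10 reads summed over the 6 libraries, so 1498 endless-frame circles were not tested. The 3900 hold 98.99% of the reads of the class. At an unadjusted p below 0.05 in edgeR 91 of 3900 (2.33%) passed, 52 higher (1.33%) and 39 lower (1.0%). Of all circRNAs tested 2.68% passed, 1.23% higher and 1.45% lower. Values of both groups did not overlap for 277 of 3900 (7.10%), against 6.63% of all. The median log2 fold change was -0.05 in both sets. The 2.33% and the 7.10% lie near the shares of all circRNAs. The 2 calls are too few to compare, and the split by direction was not tested.

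The called 324 nt circle, chr10:72329605-72332113 on the minus strand, had 19, 104 and 19 reads after CFA and 10 reads in each saline library. That is 28.9, 160 and 21.0 RPM against 17.4, 8.50 and 10.7 RPM, so each CFA library was above each saline library, and CFA replicate 2 stood far above the rest. Its log2 fold change was 2.47 with an SE of 0.58 (BH-adjusted p = 0.0182, edgeR). Without CFA replicate 2 it fell to 1.06 and the call was lost. The call was lost as well without any 1 of the saline replicates, at 2.29 to 2.74, and in DESeq2, at 2.53. It was lost too with the replicate block, at 1.93, with filterByExpr and with a minimum of 30 counts, both at 2.51, and without robust estimation, at 2.47. It carries 3 start codons and is a minor product, 4.86% of the reads of a locus with 47 circRNAs.

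The called 300 nt circle, chr10:3191467-3204962, was read in CFA replicate 1 alone, with 59 reads or 89.9 RPM, and is listed at 0 in the other 5 libraries (BH-adjusted p = 0.0143, edgeR). Counts of 1 do not occur in the table, and a 0 may stand for 1 read. The call was lost without CFA replicate 2, without any 1 of the saline replicates, in DESeq2, with the replicate block, with a minimum of 30 counts and without robust estimation. Since 1 rat holds all its reads, the values do not show a difference between the groups that is larger than the spread within CFA.

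**Figure D5:**
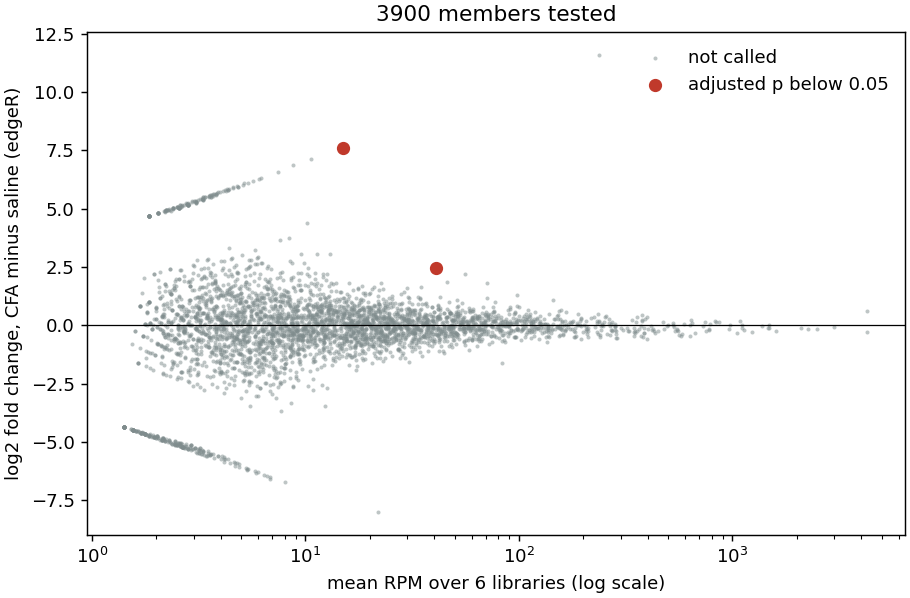
Log2 fold change, CFA minus saline, from edgeR (vertical axis) against mean RPM over 6 libraries (horizontal axis, log scale) for the 3900 endless-frame circles tested, with the 2 called circles in red. The thin outer lines are circles listed at 0 in every library of 1 group, whose fitted values are no measure of size.

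Further circles without overlap between groups did not pass. A 402 nt circle, chr4:127663314-127682607 on the minus strand, had 172, 81.3 and 167 RPM after CFA and 40.1, 46.8 and 79.1 RPM after saline, and its log2 fold change was 1.3 with an SE of 0.41 (BH-adjusted p = 0.617, edgeR). Both of its start codons are in the favourable context. The lowest CFA and the highest saline value are nearly alike. A 483 nt circle, chr11:69762379-69778524, had 33.5, 87.5 and 37.6 RPM against 26.1, 23.8 and 0 (log2 fold change 1.64, BH-adjusted p = 0.912, edgeR). A 324 nt circle, chr6:107614394-107621884, had 10, 9 and 14 reads in CFA rats and is listed at 0 in saline rats (BH-adjusted p = 0.912, edgeR).

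Toward lower values the smallest p belonged to a 681 nt circle, chr19:12652625-12713398 on the minus strand, which spans its whole locus of 9 circRNAs. It had 53.3, 24.6 and 45.4 RPM after CFA and 153, 87.6 and 135 RPM after saline, and its log2 fold change was -1.61 with an SE of 0.43 (BH-adjusted p = 0.138, edgeR). The 3 circles that follow were listed at 0 in every CFA library. A 381 nt circle, chr4:2564083-2574144, had 10, 12 and 19 reads after saline, and a 303 nt circle, chr12:39495002-39506851, had 9, 21 and 7. A 411 nt circle, chr20:31281458-31288675, had 6, 23 and 9. For each of the 3 the BH-adjusted p was 0.912 (edgeR).

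No well-read endless-frame circle was called between the groups in the edgeR test over all 6 libraries. Of 281 with reads in all 6 libraries and a mean above 100 RPM, 262 (93.2%) had a log2 fold change within 0.5 of 0, and the range was -0.73 to 0.67 at a median SE of 0.35. The smallest BH-adjusted p in this set was 0.912 (edgeR). At that median SE a log2 fold change of 0.5 in a single circle cannot be told apart from 0. A mean of 100 RPM or more was reached by 285 endless-frame circles, so asking for reads in all 6 libraries left some out. Among those left out was a 546 nt circle with 937 reads in CFA replicate 1 alone. Of all 1658 circRNAs read as well, 1518 (91.6%) lay within 0.5. Among the other multiple-of-3 circles 230 of 256 (89.8%) lay within 0.5, over -1.87 to 2.87.

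Of 31675 spliced circles, 31290 were below the length limit of 1000 nt. How many of the longer ones otherwise met the rule is not given here. The longest members were the 972 nt circle of chromosome 6 given above and a 993 nt circle, chr1:61367266-61375279, with 4 reads in CFA replicate 1 and 7 in CFA replicate 3. Just above the limit, and otherwise meeting the rule, were a 1002 nt circle, chr16:3083564-3096966, with 3 and 4 reads in saline replicates 1 and 3, and a 1014 nt circle, chr8:76897417-76904745 on the minus strand, with 101.1 ± 48.0 RPM in CFA rats and 116 ± 13.4 RPM in saline rats (SD, n = 3 each).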

How the data were processed

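Thalamus RNA of 6 rats, 3 given CFA and 3 saline, was analysed, with groups and replicate numbers from the sample titles. Per the labels' protocols, RNA was taken up on poly-T beads, which favour RNA with a poly(A) tail. Closed circles lack such a tail, and how evenly they were recovered was not tested, which limits comparisons of level between circles. The RNA was then copied from random hexamers and amplified by PCR with no molecular identifiers named, so true error is larger than counting error. Per the submitters' processing notes, the tools included DESeq2 1.20.0, featureCounts 1.5.0-p3, StringTie 1.3.3b and HISAT2 2.0.5, with no role named. The sources used here do not give the program that called the circles or the genome build.

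The authors deposited raw read counts per circRNA and library, which were used for all tests, and, per the file headers, values named TPM. Within a library 1 read had the same value for every circRNA, so these deposited values are RPM, without a length term. RPM in the text are counts over the table's total for that library, 573696 to 1176178 reads per library. The lowest count above 0 was 2. The deposited sequence file gave each circle's spliced sequence, and 1 was added to its starts, which count from 0. In all 5398 circles the 58 nt junction sequence equalled the last and first 29 bases of the circle. In 4 of them a base is N, and a codon with N was not counted as a stop. The junction and circle sequences are both as deposited, and whether reads cover the inside of each circle was not examined here.

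edgeR 4.0.16 in R 4.3.3 was fitted to all circRNAs with at least 10 counts (TMM, robust dispersions, robust quasi-likelihood test, no covariate, Benjamini-Hochberg adjustment, threshold 0.05), and only results on endless-frame circles are printed. SE were obtained by dividing the log2 fold change by the square root of F. Shares per library and reads per circle were compared with exact permutation tests. DESeq2 1.42.0, other filters and scalings, a replicate block and leaving out each library served as alternatives. The fits and the frame search were tested on simulated data. Circles are named by rule: the 8 most abundant, every called one, the 4 smallest p per direction without overlap between groups, the extremes of length and start codons, the 3 most abundant with a sole start codon across the junction or with 3 open frames, and those next to the length limit. Of the circles with 3 open frames the most abundant is given in full. The chr7 and chr19 comparison circles were chosen after their values were seen, as were the circles named below that were called only in alternative fits. Host gene lists were not analysed here, since 0 identifiers are paired with genes. The class and all lists were chosen with earlier results of these data known.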

Additional observations from a re-analysis of the deposited data

How the results depend on the processing

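Of endless-frame circles, 2 were called, with the same 2 under RLE size factors, total counts alone, no filter and no start codon asked for. With filterByExpr edgeR called 0, while 24 had an unadjusted p below 0.05. With a minimum of 30 counts it called 0 too (42 passed unadjusted), and without robust estimation 1. DESeq2 called 1, a circle lower in CFA with 75 reads in saline replicate 1 alone, and 55 passed at an unadjusted p below 0.05, where edgeR gave 91. Circles with a start codon in the favourable context held 0 of the calls (2038 of these circles were tested). Leaving out 1 library gave 0 (without saline replicate 1, 89 at an unadjusted p below 0.05 in edgeR) to 4 calls (without CFA replicate 3 or saline replicate 2).

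Same-numbered libraries did not deviate together (r of -0.07 to 0.02), so the numbers are not taken to pair the rats. With the replicate block 2 circles were called, 0 of them among the 2: one of 546 nt with 937 reads in CFA replicate 1 alone, and one of 717 nt with 32, 108 and 58 reads in CFA rats against 9, 48 and 0 in saline rats. In the block the difference was -0.0527 percentage points for the share of reads (p = 1 in the exact sign-flip permutation test) and 0.1002 for the share of circRNAs seen (p = 0.75 in the same exact test).

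The difference in the share of reads was 0.116 percentage points with a favourable start context asked for, and -0.235 to 0.0920 without 1 library each. That of circRNAs seen was -0.116 to 0.355 without 1 library each. The log2 ratio of reads per circle was 0.58 at 300 to 450 nt, 0.029 without the 10 most abundant circles of each class and 0.017 without the leading other circle. It was -0.095 to -0.073 without 1 library each, where 5 libraries cannot give a p below 0.0625. By medians of log2(RPM + 1) the difference was 1.07 (SD 1.003) as a mean over libraries. It was 2.49 in CFA replicate 2 and 2.17 in saline replicate 1, the libraries with the fewest circRNAs seen (15793 and 14764). In the others it was 0.19 to 0.81. In CFA replicate 2 and saline replicate 1 the medians lie near the floor of detection, so the mean is no measure of size.

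Of 233 refits of 17 named circles, 204 kept direction and side of the threshold, 17 lost a call, 1 gained one and 11 changed sign, all 11 in abundant circles near 0. The chrX circle had -0.00 and turned to 0.026 (RLE), 0.027 (total counts), 0.010 (filterByExpr), 0.017 (minimum of 30 counts), 0.026 (DESeq2), and -0.17 to 0.17 without 1 library each. The 498 nt circle of chromosome 4 ranged from -0.11 to 0.011 and the 465 nt circle of chromosome 11 from -0.44 to 0.059 without 1 library each. What caused these sign changes was not tested.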
